A study of Mus musculus with 16 samples.

Results

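The 10 genes grouped as the pre-B receptor and its proximal signalling were read out in all 16 libraries of a study of Cdk8 in mouse leukemia cells. These are Vpreb1, Vpreb2, Vpreb3, Igll1, Cd79a, Cd79b, Blnk, Syk, Btk and Plcg2. They were chosen by symbol from their known roles, at a time when earlier results of these data were known. They are 10 of 50686 genes in the count files, of which 29942 had at least 1 count. The libraries came from bone marrow of C57BL/6N mice transformed with the BCR-ABL1p185 oncogene, carried by a retroviral vector that also expresses GFP, and grown as immortalized cell lines. In 4 wild-type lines, which carry the floxed Cdk8 alleles without deletion, and 4 Cdk8-ko lines, in which Vav-Cre removes Cdk8 throughout the hematopoietic system, RNA was taken after 48 h with 1 µM Senexin B, an inhibitor of CDK8 and its paralog CDK19, or with the solvent DMSO at 0.01%. This gave 4 groups of 4 libraries: wild-type with DMSO, wild-type with Senexin B, Cdk8-ko with DMSO and Cdk8-ko with Senexin B. Every group therefore expressed BCR-ABL1p185, a constantly active tyrosine kinase. Each line was derived separately, so that the 8 lines are the replicates, and each line gave a DMSO and a Senexin B library.

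In a developing B cell, a rearranged immunoglobulin heavy chain is tested before any light chain exists. It pairs with the surrogate light chain, made of a VpreB protein and λ5 (Igll1), and the complex reaches the membrane together with the signalling pair Igα (Cd79a) and Igβ (Cd79b). Phosphorylated CD79 tails recruit the kinase SYK, which acts through the adaptor BLNK on BTK and phospholipase Cγ2 (Plcg2), and the resulting signals drive a burst of division and then light chain rearrangement.

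The libraries held 13145876 to 18349425 counts assigned to genes. Among 17 pro-B and pre-B cell markers, 16 had a median of at least 1 CPM (counts scaled to library size), including Pax5, Ebf1 and Cd93, while Kit was at 0 in 7 libraries. The T cell marker Cd3g, the NK cell marker Ncr1, the myeloid markers Elane, S100a8 and S100a9 and the globin gene Hba-a2 were at 0 in all 16 libraries. The mature B cell markers Ms4a1 and Fcer2a did not exceed 2.09 and 0.242 CPM. The summed levels per library were 7180 to 11282 CPM for the pro-B and pre-B list, which holds 4 of the 10 genes. They were 245 to 557 CPM for plasma cell, 115 to 228 CPM for plasmacytoid dendritic cell, 33.2 to 181 CPM for mature B cell, 17.6 to 134 CPM for T cell, 0.288 to 81.5 CPM for NK cell, 0.503 to 25.0 CPM for myeloid and 3.64 to 264 CPM for erythroid markers. Cdk8 itself was at 64.8 ± 3.01 CPM (SD, n = 4) in the wild-type and 44.3 ± 7.09 CPM in the Cdk8-ko lines with DMSO, and a count over the whole gene does not show which exons its reads came from. The response to Senexin B was not alike in all lines. Across 14164 genes, the change in wild-type line 1 correlated with the mean change in the other 7 lines at r = 0.10 and that in Cdk8-ko line 1 at r = 0.025, against 0.34 to 0.51 in the other lines, and changes with Senexin B are therefore also given without these lines.

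All 10 genes were well expressed in all 16 libraries, with 1371 counts for the lowest value. Levels below are CPM scaled by the TMM method of edgeR, and comparisons between genes use these levels per kilobase of the exon model (RPKM), averaged over the 2 libraries of a line. Vpreb3, whose product binds surrogate and conventional light chains inside the cell, stood highest at 2933 ± 847 RPKM (SD, n = 8 lines) and exceeded the next gene in 8 of 8 lines. Cd79b at 605 ± 133, Cd79a at 580 ± 119 and Igll1 at 569 ± 65.3 RPKM followed, and their order was not the same in all lines, since Cd79b exceeded Cd79a in 4 of 8 lines and Cd79a exceeded Igll1 in 5. Vpreb2 was at 447 ± 140 RPKM. The genes of the cytoplasmic relay were lower, with Blnk at 134 ± 36.2 and Plcg2 at 132 ± 37.5 RPKM, which changed places in 4 of 8 lines, then Vpreb1 at 120 ± 14.0, Btk at 85.3 ± 22.8 and Syk at 32.3 ± 11.1 RPKM. Btk exceeded Syk in 8 of 8 lines. On average, Cd79a, Cd79b, Igll1 and Vpreb2 were thus read out at higher levels per length than Blnk, Plcg2, Btk and Syk. Vpreb1 was the exception among the genes of the receptor itself, and the levels of Vpreb1 and Vpreb2 per length have limits given below.

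**Figure D1:**
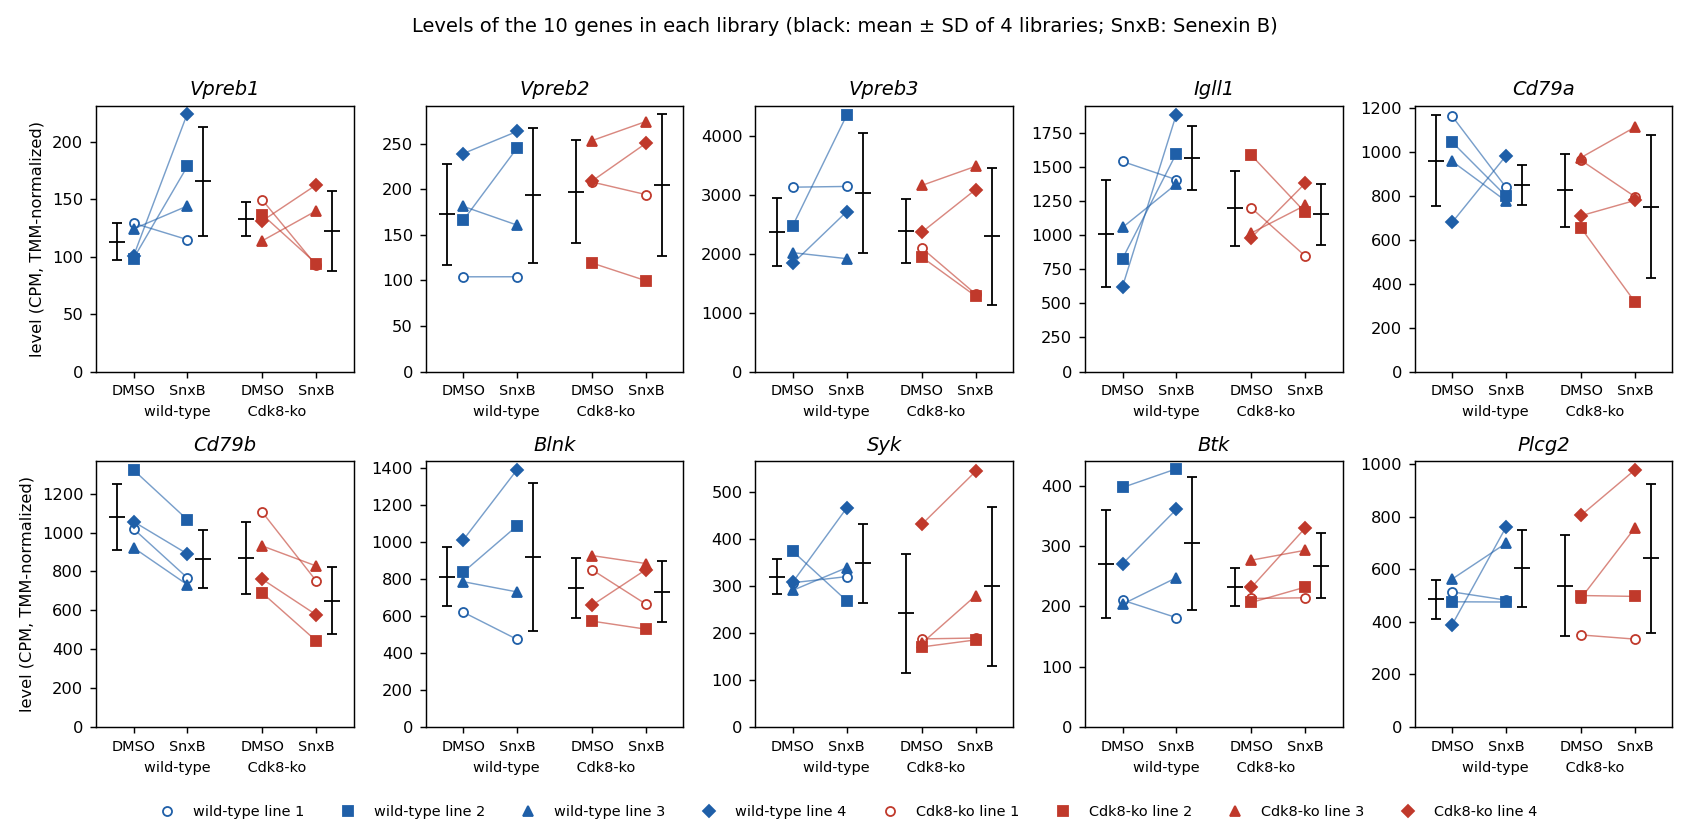
Levels of the 10 genes in CPM (vertical axis, from 0) for each library, by genotype and treatment. A thin line joins the DMSO and the Senexin B library of a cell line, and black marks give mean ± SD of 4 libraries. Cd79b slopes down in all 8 lines, Igll1 and Vpreb1 slope in both directions, and Syk of Cdk8-ko line 4 stands above the other Cdk8-ko lines.

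The VpreB genes need care when their levels are read. Vpreb1 (chr16:16868402-16870843, minus strand, GRCm38) and Vpreb2 (chr16:17980565-17981080, plus strand) encode almost the same protein, the part of the surrogate light chain that resembles a variable domain. Their coding sequences, compared in the GENCODE M21 transcripts, have 429 bases each and differ at 9 of them, an identity of 97.9%. The stretch with the most differences, coding bases 238 to 387, is printed to show how few letters tell the genes apart, with the 6 differing bases in capitals. It lies at chr16:16868638-16868787 for Vpreb1 and chr16:17980889-17981038 for Vpreb2.
Vpreb1: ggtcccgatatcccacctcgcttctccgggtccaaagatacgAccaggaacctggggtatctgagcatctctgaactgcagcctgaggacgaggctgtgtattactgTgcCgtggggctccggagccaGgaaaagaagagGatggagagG
Vpreb2: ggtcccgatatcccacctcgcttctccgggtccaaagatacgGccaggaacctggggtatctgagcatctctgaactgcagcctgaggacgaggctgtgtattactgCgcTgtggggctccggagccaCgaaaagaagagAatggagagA
The reads were 50 bases long, and 42.6% of the 50-base windows of either coding sequence were also found in the transcript of the other gene. A read from such a window maps to both genes and is left out at the default setting of the counting tool, so counts of both genes come from the remaining windows. The exon model used for counting spans 1113 bases for Vpreb1, of which 108 (9.70%) overlap exons of Top3b on the opposite strand, but 429 bases, the length of the coding sequence, for Vpreb2. The difference per length between Vpreb2 and Vpreb1 is uncertain for these reasons. Top3b was at 162 ± 19.3 CPM in the wild-type and 173 ± 4.18 CPM in the Cdk8-ko lines with DMSO, and its part in the Vpreb1 counts was not tested.

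The first question was whether loss of Cdk8 changes the receptor. With DMSO, none of the 10 genes passed both limits of edgeR's quasi-likelihood test, a fold change above 2 and p-values that stayed below 0.05 after adjustment, where 1 of 13174 genes did (0.00759%). None had an unadjusted p under 0.05 either, against 5.32% of all genes tested, and DESeq2 gave the same counts of 0 for the members. The 4 against 4 values of all 10 genes overlapped, while the groups of 3.14% of all genes did not. The median log2 fold change (Cdk8-ko minus wild-type) was -0.05 for the 10 genes and 0.002 for all genes, with 5 genes above and 5 below 0.

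Among the VpreB genes and Igll1 with DMSO, Vpreb1 was at 129, 98.5, 124 and 101 CPM in wild-type lines 1 to 4. In Cdk8-ko lines 1 to 4 it was at 149, 137, 114 and 131 CPM. The values of 3 Cdk8-ko lines were above all wild-type values, and that of line 3 was among them. The log2 fold change was 0.23 (SE 0.14, edgeR adjusted p = 0.908), and the exact two-sided permutation test of the 4 against 4 log2 values gave p = 0.143, where 0.0286 is the smallest such a test can give. Igll1 (chr16:16860671-16863985, minus strand), the λ5 part of the surrogate light chain, was at 1541, 828, 1057 and 623 CPM in the wild-type lines and at 1199, 1585, 1017 and 983 CPM in the Cdk8-ko lines, which overlapped over most of their range. Its log2 fold change was 0.25 (SE 0.29, edgeR adjusted p = 0.937). Vpreb2 differed by 0.20 (SE 0.29) and Vpreb3 (chr10:75943057-75949657, plus strand) by 0.02 (SE 0.22).

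Of the receptor's signalling pair, Cd79b (chr11:106311341-106314762, minus strand) was at 1019, 1322, 922 and 1056 CPM in wild-type lines 1 to 4 with DMSO and at 1104, 688, 931 and 759 CPM in Cdk8-ko lines 1 to 4. Lines 2 and 4 of the Cdk8-ko group lay below all wild-type lines and the other lines among them. The log2 fold change was -0.31 (SE 0.18, edgeR adjusted p = 0.908), with an exact permutation p = 0.200. Cd79a (chr7:24897381-24902197, plus strand) had a log2 fold change of -0.22 (SE 0.21).

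In the cytoplasmic relay, Syk (chr13:52583173-52648792, plus strand), the kinase that binds the phosphorylated CD79 tails, was at 307, 374, 291 and 308 CPM in the wild-type lines with DMSO and at 187, 170, 178 and 431 CPM in the Cdk8-ko lines. Cdk8-ko lines 1 to 3 were below every wild-type line, and Cdk8-ko line 4 was above every one of them. The log2 fold change over the 4 lines was -0.40 (SE 0.31, edgeR adjusted p = 0.913), and the exact permutation p was 0.143. Without Cdk8-ko line 4, picked out by its Syk value, the log2 fold change was -0.84 (SE 0.13, edgeR adjusted p = 0.738). Plcg2 (chr8:117498291-117635142, plus strand), the phospholipase at the end of the relay, was likewise highest in Cdk8-ko line 4, at 806 CPM against 350 to 501 CPM in the other Cdk8-ko lines and 390 to 563 CPM in the wild-type lines. Its log2 fold change was 0.15 (SE 0.25). The adaptor Blnk (chr19:40928927-40994535, minus strand) and the kinase Btk (chrX:134542336-134583570, minus strand) differed by -0.11 (SE 0.20) and -0.22 (SE 0.22). In bulk RNA, fewer cells expressing a gene and less RNA per cell cannot be told apart, which holds for all comparisons here.

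The same comparison in the presence of Senexin B again called none of the 10 genes, nor any of 13010 genes (0%). No member had an unadjusted p under 0.05 in edgeR, against 1.55% of all genes, and Igll1 was the only member to have one in DESeq2. No member had groups that did not overlap, as 0.999% of all genes had. The median log2 fold change of the members was -0.27 against -0.004 for all genes, with 8 of 10 members below 0. Igll1 was at 1407, 1598, 1375 and 1884 CPM in wild-type lines 1 to 4 with Senexin B and at 847, 1168, 1219 and 1380 CPM in the Cdk8-ko lines. All but Cdk8-ko line 4 were below the whole wild-type group, and that line lay just above its lowest value. The log2 fold change of -0.44 (SE 0.21, unadjusted p = 0.0633, edgeR adjusted p = 1.00) and the exact permutation p of 0.0571 missed the threshold. Vpreb1 had a log2 fold change of -0.44 (SE 0.27), Cd79b of -0.41 (SE 0.24) and Vpreb3 of -0.40 (SE 0.41).

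**Figure D2:**
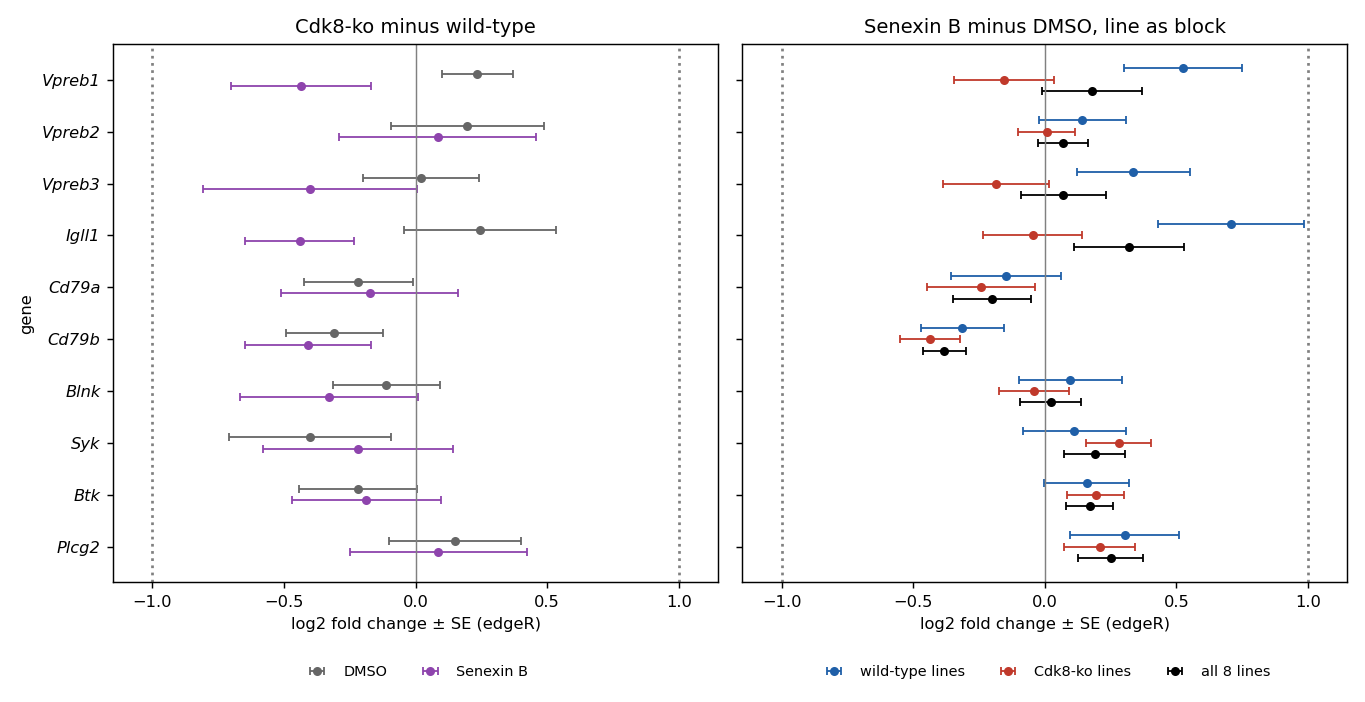
Log2 fold changes with their standard errors from edgeR, in the left panel for Cdk8-ko minus wild-type with DMSO (grey) and with Senexin B (purple), and in the right panel for Senexin B minus DMSO with the line as a block in wild-type lines (blue), Cdk8-ko lines (red) and all 8 lines (black). Dotted lines mark a fold change of 2, which no point reaches. Cd79b lies below 0 in every comparison, at -0.38 over the 8 lines.

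The second question was what the inhibitor does within a line. Without regard to the line, no member passed both limits with Senexin B in the wild-type lines (0 of 12989 genes, 0%), in the Cdk8-ko lines (0 of 13285 genes, 0%) or over the 8 lines (0 of 14164 genes, 0%). Unadjusted p-values under 0.05 were found for 2 members in the wild-type lines, Vpreb1 and Igll1, where 3.8% of all genes had one, for 0 members in the Cdk8-ko lines, where 1.83% had one, and for 1 member, Cd79b, over the 8 lines, where 4.86% had one. DESeq2 called no member either and gave the same 2, 0 and 1 members an unadjusted p under 0.05. Both libraries of a line deviated together from their group means, so the line was added to the fit as a block. Then 45 genes in the wild-type lines (0.346%), 7 in the Cdk8-ko lines (0.0527%) and 134 over the 8 lines (0.946%) passed both limits, again with no member among them.

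Cd79b was the member with the most even response. In wild-type lines 1 to 4 it was at 1019, 1322, 922 and 1056 CPM with DMSO and at 768, 1067, 732 and 891 CPM with Senexin B. In Cdk8-ko lines 1 to 4 it was at 1104, 688, 931 and 759 CPM with DMSO and at 752, 443, 828 and 577 CPM with Senexin B. It was lower with the inhibitor in 8 of 8 lines, as 2.59% of all genes were, by a ratio between 0.644 in Cdk8-ko line 2 and 0.890 in Cdk8-ko line 3. The exact two-sided test that changes the signs of the 8 differences gave p = 0.00781, the smallest it can give. With the line as a block, Cd79b fell by 0.38 on the log2 scale (SE 0.081, edgeR adjusted p = 0.0308), one of the 1.49% of genes that were lower at an adjusted p under 0.05, but by less than the fold change limit. Without the block the log2 fold change was -0.37 (SE 0.15, edgeR adjusted p = 0.854). The call was lost when any line but wild-type line 2 was left out. Leaving out each line in turn gave log2 fold changes from -0.40 to -0.34 and edgeR adjusted p-values from 0.0415 to 0.0919. The mean within-line change of log2(CPM + 1) was -0.32 ± 0.07 (SD, n = 4) in the wild-type and -0.44 ± 0.21 in the Cdk8-ko lines, and the exact permutation p for the difference between genotypes was 0.343. Its partner Cd79a was lower with Senexin B in 5 of 8 lines, from a ratio of 0.486 in Cdk8-ko line 2 to 1.45 in wild-type line 4, and its log2 fold change of -0.20 (SE 0.15) with the block had an edgeR adjusted p = 0.556.

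**Figure D3:**
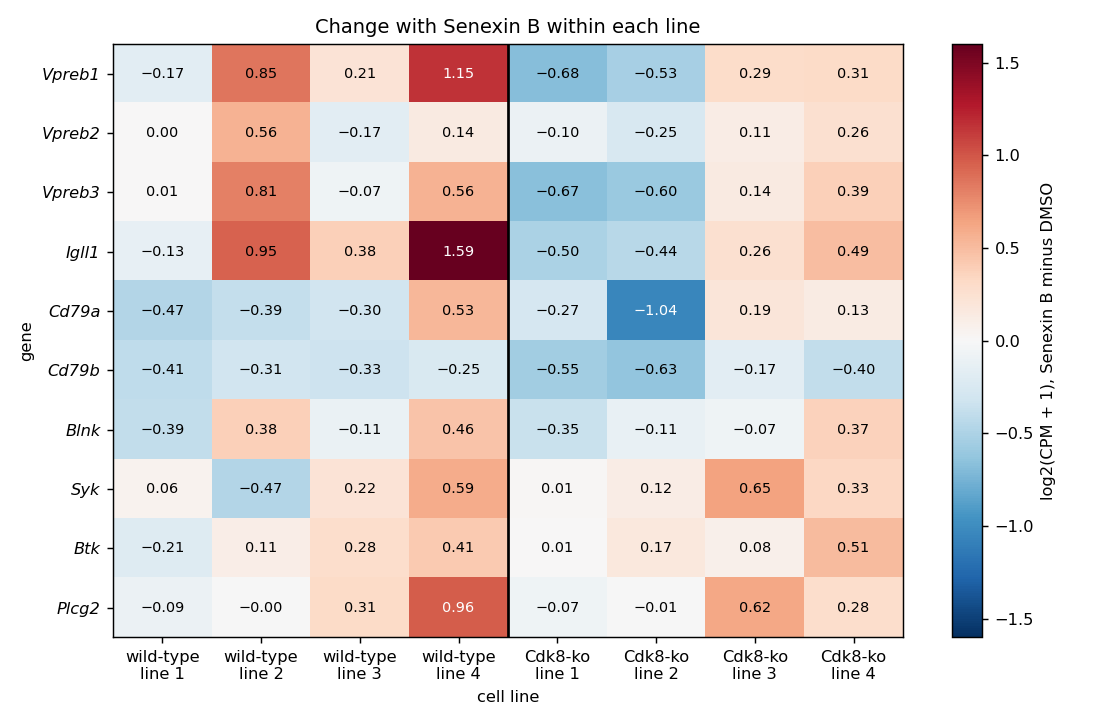
Change of each gene with Senexin B in each line, as the difference of log2(CPM + 1) between the Senexin B and the DMSO library (red higher, blue lower, value printed in the cell). The Cd79b row runs from -0.63 to -0.17 with no positive value, and Igll1 runs from 1.59 in wild-type line 4 to -0.50 in Cdk8-ko line 1.

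The surrogate light chain genes did not move alike in all lines. Igll1 was at 1541, 828, 1057 and 623 CPM with DMSO and 1407, 1598, 1375 and 1884 CPM with Senexin B in wild-type lines 1 to 4, and in Cdk8-ko lines 1 to 4 at 1199, 1585, 1017 and 983 CPM with DMSO and 847, 1168, 1219 and 1380 CPM with Senexin B. It was higher with the inhibitor in wild-type lines 2, 3 and 4, by a ratio of up to 3.02, and in Cdk8-ko lines 3 and 4, and lower in the other 3 lines, down to a ratio of 0.707. Vpreb1 moved the same way in each line, from a ratio of 2.23 in wild-type line 4 to 0.620 in Cdk8-ko line 1, with 115, 179, 144 and 224 CPM in the wild-type lines and 92.5, 94.1, 140 and 163 CPM in the Cdk8-ko lines under Senexin B. In the wild-type lines with the line as a block, the log2 fold changes were 0.71 (SE 0.28, edgeR adjusted p = 0.426) for Igll1 and 0.53 (SE 0.22, edgeR adjusted p = 0.473) for Vpreb1, and so neither passed.

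These values moved with the lines that entered. Without both libraries of wild-type line 1, 1 of the 2 lines whose response stood apart, Igll1 had a log2 fold change of 0.97 (SE 0.24, edgeR adjusted p = 0.0346) and Vpreb1 of 0.74 (SE 0.20, edgeR adjusted p = 0.0459), in a fit of 3 lines that called 538 genes where the 4 lines called 45. That line was singled out by its response to Senexin B in these same data. The adjusted p-values without it are therefore a description and cannot be read as a test. Without wild-type line 4, which had the highest change of both genes, the log2 fold changes were 0.40 (SE 0.27, edgeR adjusted p = 0.981) and 0.30 (SE 0.23, edgeR adjusted p = 0.990). Without line 2 or line 3 they were 0.62 and 0.82 for Igll1 and 0.41 and 0.63 for Vpreb1, with edgeR adjusted p-values from 0.770 to 0.904. The DMSO library of wild-type line 1 was also the only 1 of 16 whose count file names another annotation folder in its header, with the same gene models, and the part this played was not tested. In the Cdk8-ko lines, the blocked log2 fold changes were -0.05 (SE 0.19) for Igll1 and -0.15 (SE 0.19) for Vpreb1, and 0.10 and 0.03 without Cdk8-ko line 1. Without the line as a block, the difference between the genotypes in the change with Senexin B was -0.67 for Vpreb1 (SE 0.31, unadjusted p = 0.0470, edgeR adjusted p = 1.00) and -0.68 for Igll1 (SE 0.36, unadjusted p = 0.0779). In that fit 0.473% of all genes had an unadjusted p under 0.05 and 0 of 14164 (0%) passed the limits. DESeq2 gave no member an unadjusted p under 0.05 there. With the line as a block, 0 of the 10 members had an unadjusted p under 0.05 in edgeR, while 459 of 14164 genes had one. Again 0 genes passed the limits. The exact permutation of the 4 against 4 within-line changes gave p = 0.171 for Vpreb1 and p = 0.143 for Igll1, so a different response in the 2 genotypes was not shown. Without line 1 of each genotype the mean within-line changes differed by -0.72 for Vpreb1 and by -0.87 for Igll1, in 3 against 3 lines. The exact permutation gave p = 0.3 for Vpreb1 and p = 0.2 for Igll1 there, so a difference was again not shown.

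Vpreb3 and Vpreb2 differed from Igll1 in direction in wild-type lines 1 and 3, where their ratios lay between 0.887 and 1.00. Vpreb3 ranged from a ratio of 1.75 in wild-type line 2 to 0.628 in Cdk8-ko line 1, and Vpreb2 from 1.48 in wild-type line 2 to 0.838 in Cdk8-ko line 2. Over the 8 lines with the block, their log2 fold changes were 0.07 (SE 0.16) and 0.07 (SE 0.094). In the relay, Syk and Btk were higher with Senexin B in 7 of 8 lines each, Syk with the exception of wild-type line 2 and Btk with that of wild-type line 1, although some of these ratios were as small as 1.01. Their blocked log2 fold changes over the 8 lines were 0.19 (SE 0.12, edgeR adjusted p = 0.459) and 0.17 (SE 0.089, edgeR adjusted p = 0.377). Plcg2 was higher in 4 of 8 lines, most in wild-type line 4 with a ratio of 1.95, and its log2 fold change of 0.25 (SE 0.12) had an edgeR adjusted p = 0.343. Blnk was higher in 3 of 8 lines, with a log2 fold change of 0.02 (SE 0.12). Over the 8 lines with the block, 8 of the 10 members were above 0 and 2, the CD79 genes, below, with a median of 0.12 against -0.005 for all genes. Without wild-type line 1 or Cdk8-ko line 1 each of the 10 kept its sign, and the edgeR adjusted p-values of the 7 genes other than Cd79b, Igll1 and Vpreb1 were at least 0.224.

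Which genes varied together differed between levels and changes. Over the mean levels of the 8 lines, Vpreb1 and Igll1 had Pearson's r = -0.35, whereas their changes with Senexin B had r = 0.98. The changes of Vpreb3 went with those of Vpreb1 (r = 0.93), Vpreb2 (r = 0.88) and Igll1 (r = 0.88), and the changes of Blnk with those of Igll1 (r = 0.86) and Vpreb1 (r = 0.84). The changes of Syk had r between -0.30 and 0.20 with those of Vpreb1, Vpreb2, Vpreb3 and Igll1. The changes of Syk and Plcg2 had r = 0.80. Among the levels, Vpreb2 went with Blnk (r = 0.87), Vpreb1 with Syk (r = 0.89) and Cd79a with Cd79b (r = 0.78), and Igll1 went against Vpreb2 (r = -0.87) and Blnk (r = -0.76). Each coefficient rests on 8 lines whose values share the scaling of their libraries, and is given as a description. Over the 6 lines without line 1 of either genotype, the changes of Vpreb1 and Igll1 had r = 0.98, those of Vpreb3 had r = 0.92, 0.92 and 0.85 with Vpreb1, Vpreb2 and Igll1, and those of Blnk had r = 0.82 with Igll1 and 0.79 with Vpreb1. The levels of Vpreb1 and Igll1 had r = -0.76 over these 6 lines and those of Vpreb3 and Igll1 -0.73, against 0.12 over 8.

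**Figure D4:**
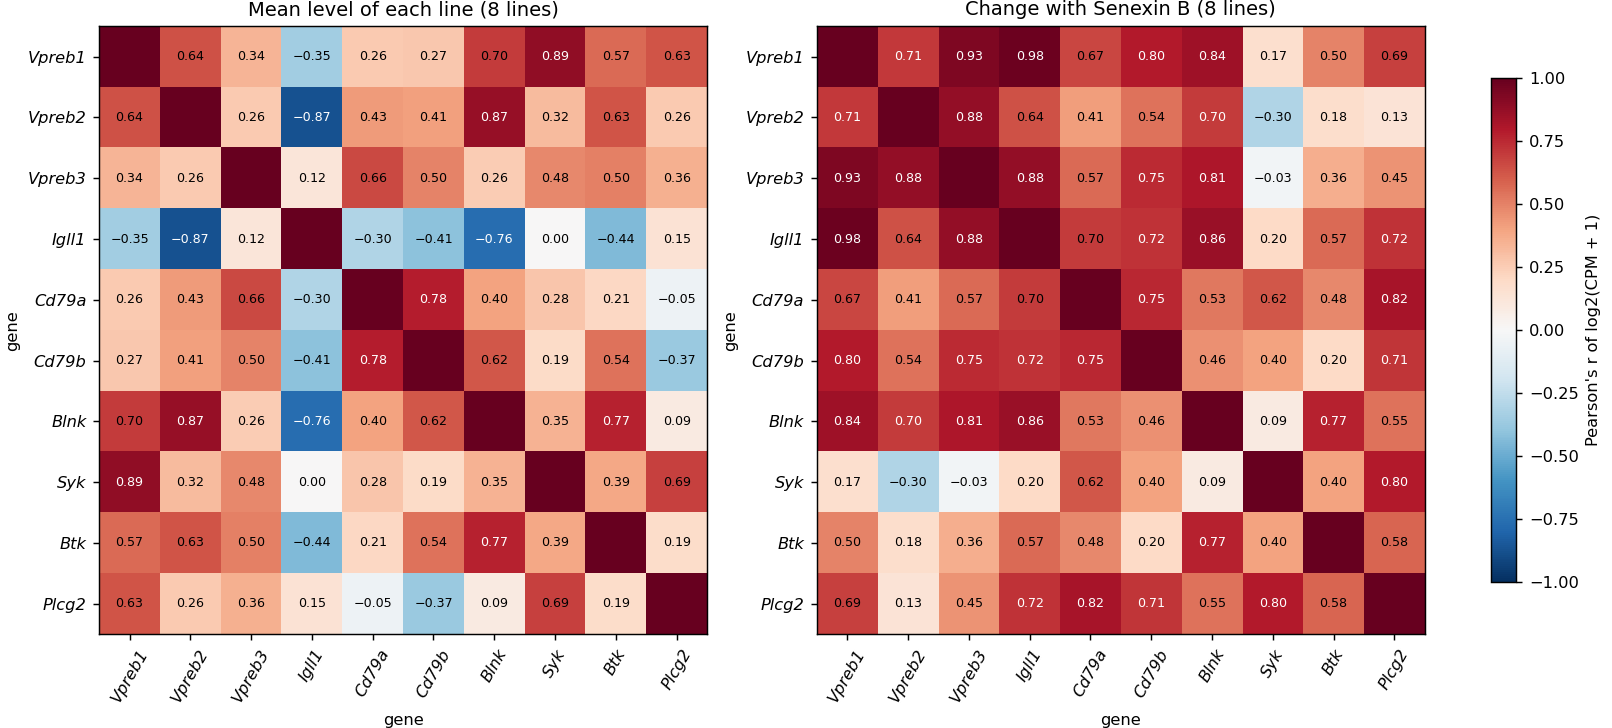
Pearson's r between the 10 genes over 8 lines, for the mean of the DMSO and Senexin B levels of each line (left) and for the change with Senexin B (right), both on log2(CPM + 1). Igll1 is negative with Vpreb2 at the left (-0.87) and positive at the right (0.64), and the pair of Vpreb1 and Igll1 goes from -0.35 to 0.98.

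Among 12534 other genes with a mean of at least 1 CPM, the closest in pattern to each member over the 16 libraries had r between 0.83 and 0.95. They were picked as the highest of 12534 values, over 16 libraries that come from 8 lines. The names are therefore a description, and a link between these genes was not tested. Plcg2 was followed most closely by Acsl5 (r = 0.95), Pctp (r = 0.92) and Tmem100 (r = 0.92), and Vpreb2 by Galnt14 (r = 0.92), Depdc7 (r = 0.91) and Apobec3 (r = 0.89). Cd79b was nearest to Ripk3 (r = 0.87), Snx15 (r = 0.86) and Psap (r = 0.86). Vpreb1 was nearest to Eme1 (r = 0.86), to Ccnd3 (r = 0.83), which encodes cyclin D3, and to Gm17383 (r = 0.83), and Igll1 to Hmgb1 (r = 0.83), 5830418P13Rik (r = 0.81) and Lrmp (r = 0.81). For Syk these were Ptpdc1 (r = 0.88), Pfkp (r = 0.86) and Tmem86a (r = 0.85), and for Btk they were Btg1 (r = 0.89), Strada (r = 0.88) and Slc17a8 (r = 0.88). Blnk was nearest to Mex3b (r = 0.89), Gm31597 (r = 0.86) and Ssbp3 (r = 0.86), Cd79a to Jakmip1 (r = 0.87), Rnase9 (r = 0.86) and A430033K04Rik (r = 0.85), and Vpreb3 to 4930523C07Rik (r = 0.87), Rhno1 (r = 0.86) and Gm6177 (r = 0.84). Of the genes named here, Gm31597, Gm17383 and Ptpdc1 had low mean levels, at 1.81, 2.66 and 2.91 CPM. The highest r between members was 0.84, for Vpreb2 and Blnk.

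Since several of these genes moved together, the 250 bases upstream of their RefSeq transcription starts were searched on both strands, in GRCm38.p6, for 4 motifs of B cell regulators. An E-box with the letters CAGGTG, the kind bound by E2A, was found for 7 of the 9 members with a promoter entry, in 8 of their 10 windows since Syk has 2, and in 17.2% of 32851 promoter windows of all genes. The Vpreb1 and Vpreb2 windows share a run of 91 identical bases that holds both the E-box and the PU.1-type site, so these matches in the pair are copies of the same stretch. The octamer ATTTGCAT, bound by OCT proteins, was found for Vpreb3 and Blnk and in 1.6% of all windows. The letters GAGGAA, a PU.1-type site, were found for 4 members (Vpreb1, Vpreb2, Cd79a and Syk) and in 23.3% of all windows, and CCCNNGGG, an EBF-type site, for 1 member (Igll1) and in 11.8% of all windows. Cd79b had no entry. The windows of Vpreb1 (chr16:16869256-16869505, minus strand) and Igll1 (chr16:16863986-16864235, minus strand), whose changes were the most alike, and of Vpreb3 (chr10:75948050-75948299, plus strand) and Blnk (chr19:40994222-40994471, minus strand), which hold the octamer, are printed 5′ to 3′ with the matched letters in capitals. No motif overlapped another in these 4 windows, and the RefSeq starts of Vpreb1, Vpreb3 and Blnk lie inside the gene spans given above.
Vpreb1: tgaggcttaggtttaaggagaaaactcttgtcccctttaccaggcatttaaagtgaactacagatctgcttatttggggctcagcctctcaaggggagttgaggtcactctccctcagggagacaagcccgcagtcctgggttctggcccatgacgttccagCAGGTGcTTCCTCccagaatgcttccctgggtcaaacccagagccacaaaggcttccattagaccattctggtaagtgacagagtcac
Igll1: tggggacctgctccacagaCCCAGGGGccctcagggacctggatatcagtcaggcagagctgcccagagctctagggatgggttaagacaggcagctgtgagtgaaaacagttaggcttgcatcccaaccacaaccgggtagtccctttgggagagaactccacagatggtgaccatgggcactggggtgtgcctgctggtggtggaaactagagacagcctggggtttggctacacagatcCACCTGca
Vpreb3: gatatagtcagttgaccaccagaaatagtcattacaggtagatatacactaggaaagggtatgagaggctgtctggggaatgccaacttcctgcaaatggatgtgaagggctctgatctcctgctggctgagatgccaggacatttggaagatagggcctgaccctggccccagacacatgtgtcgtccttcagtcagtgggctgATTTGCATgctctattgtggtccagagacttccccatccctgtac
Blnk: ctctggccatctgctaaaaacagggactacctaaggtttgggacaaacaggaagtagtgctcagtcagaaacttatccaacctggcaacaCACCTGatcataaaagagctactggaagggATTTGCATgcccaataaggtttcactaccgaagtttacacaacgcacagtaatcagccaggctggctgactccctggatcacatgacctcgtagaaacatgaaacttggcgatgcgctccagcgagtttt
The E-box stands 88 bases before the start in Vpreb1, 8 bases in Igll1 and 160 bases in Blnk, and the octamer 45 bases before the start in Vpreb3 and 130 bases in Blnk. A match is a run of letters and does not show that a factor binds there.

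The genes around the receptor were followed in 6 lists, which were chosen with earlier results of these data known. Shares of list genes beside those of all genes are therefore a description. For genotype with DMSO, none of the 90 list genes tested passed both limits, and 5 (5.56%) had an unadjusted p under 0.05, close to the 5.32% of all genes. These 5, all with lower values in the Cdk8-ko lines, were Fyn, a Src family kinase (log2 fold change -0.63, SE 0.17), Bcl10 (-0.49, SE 0.20) and Nfatc1 (-0.34, SE 0.14) downstream of PLCG2, the adaptor Sla (-0.43, SE 0.19) and the repressor Bcl6 (-0.92, SE 0.36), each with an edgeR adjusted p of 0.897. The heavy chain itself, Ighm, was at 3419 ± 1456 CPM in the wild-type and 2388 ± 826 CPM in the Cdk8-ko lines with DMSO (SD, n = 4), and its log2 fold change of -0.51 (SE 0.36) had an edgeR adjusted p = 0.912.

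With Senexin B and the line as a block, 2 of the 92 list genes tested (2.17%) passed both limits over the 8 lines, where 0.946% of all genes did. Igkc, the kappa light chain constant gene that pre-B cells transcribe as the locus opens, was at 3.35, 177, 16.5 and 15.04 CPM in wild-type lines 1 to 4 with DMSO and at 17.0, 737, 43.3 and 51.0 CPM with Senexin B. In Cdk8-ko lines 1 to 4 it was at 1.25, 9.51, 69.8 and 7.57 CPM with DMSO and at 3.39, 16.8, 123 and 47.4 CPM with Senexin B. It was higher in 8 of 8 lines although the lines differed widely in level, with a log2 fold change of 1.65 (SE 0.20, edgeR adjusted p = 0.00311). Bank1, a scaffold that binds LYN and PLCG2, was lower in 8 of 8 lines, going from 16.4, 11.6, 31.2 and 73.2 CPM to 6.33, 2.78, 9.84 and 16.6 CPM in the wild-type lines and from 72.7, 4.13, 34.6 and 28.2 CPM to 1.17 to 22.7 CPM in the Cdk8-ko lines. Its log2 fold change was -1.63 (SE 0.14, edgeR adjusted p = 0.000254). Without the block, the edgeR adjusted p-values were 1.00 for Igkc and 0.854 for Bank1.

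At an adjusted p under 0.05 alone, 5 more list genes changed over the 8 lines. Lyn, the Src family kinase that phosphorylates CD79, fell by 0.43 on the log2 scale (SE 0.072, edgeR adjusted p = 0.00989) and was lower in 8 of 8 lines. The calcium channel gene Orai1 fell by 0.50 (SE 0.10, edgeR adjusted p = 0.0277) and the transcription factor Nfatc1, which calcium signals activate, by 0.34 (SE 0.082, edgeR adjusted p = 0.0499), each lower in 8 of 8 lines. Bcl6, a repressor induced downstream of the pre-B receptor, rose by 0.95 (SE 0.15, edgeR adjusted p = 0.00919) from low levels, with 1.32 to 5.80 CPM with DMSO and 3.16 to 11.99 CPM with Senexin B. Lcp2, an adaptor related to BLNK that was named after its values were seen, rose by 0.96 (SE 0.13, edgeR adjusted p = 0.00565). Without the block, the edgeR adjusted p-values were 0.786 for Lyn, 0.854 for Orai1, 0.942 for Nfatc1 and 0.574 for Bcl6, and Lcp2 did not pass either. How far these genes depend on single lines was not tested. With the block, 7 of 92 list genes (7.61%) passed an adjusted p under 0.05 in all, where 2.63% of all genes did. Because the lists were not chosen blind to these data, no enrichment can be read from these shares. By list, these were 1 of 5 heavy and light chain genes, 1 of 11 kinases and regulators, 2 of 20 co-receptor and adaptor genes, 2 of 17 genes downstream of PLCG2, 0 of 20 negative regulators and 1 of 19 transcription factors. Of the transcription factors, Irf4 (log2 fold change 0.43, SE 0.12) and Ikzf3 (0.59, SE 0.18) missed it with edgeR adjusted p-values of 0.0893 and 0.111.

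**Figure D5:**
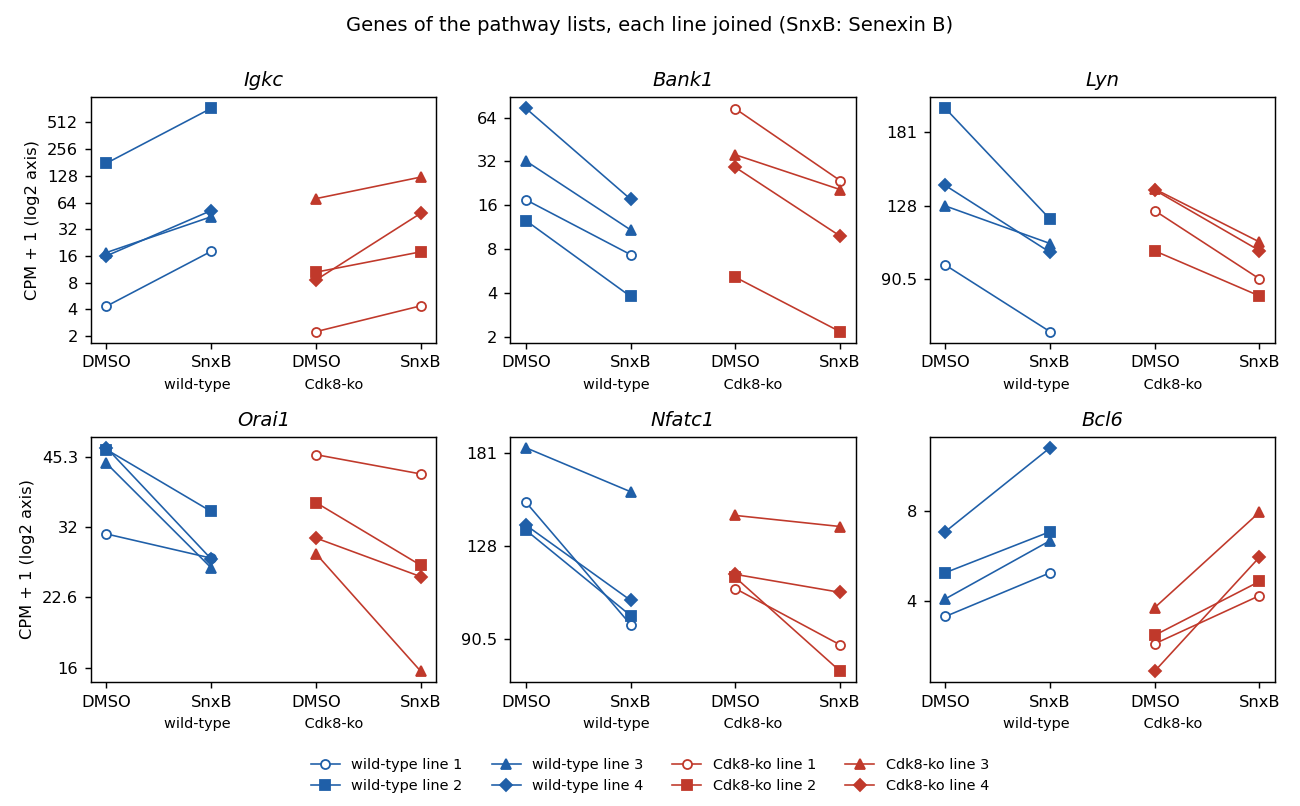
CPM + 1 on a log2 axis for 6 genes of the surrounding pathway, with a line joining the DMSO and Senexin B library of each cell line. Igkc and Bcl6 slope up and Bank1, Lyn, Orai1 and Nfatc1 slope down in all 8 lines, while Igkc with DMSO spans 1.25 to 177 CPM between lines.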

How the data were processed

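RNA was measured by single-end sequencing of 50 bases after library preparation with the Lexogen SENSE mRNA kit in 16 libraries from 8 BCR-ABL1p185+ lines. The authors trimmed reads with Trimmomatic, mapped them using STAR and summarised them over genes by featureCounts 1.5.1, per the file headers without options for strand or multi-mapping reads, on GENCODE M13 gene models (GRCm38). The deposited values are raw counts per gene. Read totals ranged from 13145876 to 18349425 counts. From these, edgeR 4.0.16 quasi-likelihood fits were run in R 4.3.3 with TMM scaling, filterByExpr and Benjamini-Hochberg adjustment over all genes tested, and a gene was called where the adjusted p was below 0.05 and the log2 fold change beyond 1 in either direction. Group levels are TMM-scaled CPM, and log2 levels used a pseudocount of 1. Exact permutation tests (scipy 1.17.1) were two-sided. The members and lists were chosen with earlier results of these data known. From each pathway list the 3 genes with the smallest unadjusted p in the genotype comparison with DMSO and over the 8 lines were eligible to be named, together with any past the limits, and the 3 genes with the highest r for each member.

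Both libraries of a line, with solvent and with inhibitor, carry the same replicate number. Their deviations from the group means correlated at r = 0.56 to 0.78 in the wild-type and 0.77 to 0.87 in the Cdk8-ko lines over 14164 genes, against means of -0.23 and -0.27 for different numbers. Alternatives were a replicate block, DESeq2 1.42.0, no filter on low counts, RLE size factors, a fit of all 16 libraries, summed libraries of a line and leaving out each library. Leaving out whole lines under the block, the block without a fold limit, and within-line changes and correlations without line 1 of each genotype were added after seeing the data. The fits were tested on simulated data. P-values of the genotype fits within a treatment measure the spread between lines. Those of the Senexin B fits with the line as a block measure the spread of the changes within lines. The Senexin B and interaction fits without the block treat both libraries of a line as separate samples.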

Additional observations from a re-analysis of the deposited data

Results flagged for a closer look

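Syk in Cdk8-ko line 4 with DMSO stood apart from its group, at 431 CPM against 170 to 187 CPM in the other 3 Cdk8-ko lines. The gap to the nearest line made up 0.934 of the range of the group, above Dixon's critical value for 4 samples. Of 40 groups of a member and a condition, 1 was singled out in this way, and chance alone singles out about 1 in 20. The same line was also the highest of its group with Senexin B, at 543 CPM against 185 to 279 CPM. Without the DMSO library of Cdk8-ko line 4, the log2 fold change of Syk between genotypes was -0.84 (SE 0.13, edgeR unadjusted p = 0.000218 and adjusted p = 0.738), against -0.40 (SE 0.31) with it. The library was picked out by these same Syk values, so the unadjusted p-value without it cannot be read as a test. Leaving out each DMSO library in turn gave log2 fold changes from -0.84 to -0.28.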

How the results depend on the processing

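No member passed both limits under any alternative, and 69 of 958 alternative fold changes of members had the other sign where the value lay within 1 SE of 0. In 1 more, the log2 fold change of Vpreb1 between genotypes reversed from 0.23 to -0.11 when the DMSO and Senexin B libraries of each line were summed. The summed fit compares the genotypes over both treatments, so this value does not bear on the comparison with DMSO alone. Counts of genes past both limits moved more. For genotype with DMSO the count was 1, with 0 under the replicate block, 32 in DESeq2 and 0 whichever library was left out. For genotype with Senexin B it was 0, with 1 without a filter on low counts, 10 in DESeq2 and 1 in the fit of all 16 libraries. The genotype groups share only a number, since deviations of same-numbered lines correlated at a mean r of 0.0097 with DMSO and 0.12 with Senexin B, and the block called no member there. For Senexin B in the wild-type lines the count of 0 became 45 with the line as a block, 46 with the block and no fold limit, 3 without a filter and 19 in DESeq2. In the Cdk8-ko lines it became 7 with the block, with or without the fold limit. Over the 8 lines it became 134 with the block, 373 with the block and no fold limit, which included 1 member, Cd79b, 17 in DESeq2 and 0 to 5 when a library was left out, with 5 without the Senexin B library of Cdk8-ko line 1. Under the block, leaving out each line gave 0 to 538 genes in the wild-type lines, with 538 without line 1, 0 without line 2, 9 without line 3 and 28 without line 4, 0 to 31 in the Cdk8-ko lines, with 31 without line 1, 2 without line 3 and 0 without line 2 or 4, and 80 to 178 over the 8 lines, lowest with 80 and 88 without wild-type lines 3 and 4, while the members at an adjusted p under 0.05 numbered 0 to 2 in the wild-type lines and 0 to 1 over the 8 lines. The corresponding log2 fold changes in the wild-type lines ran from 0.40 to 0.97 for Igll1 and from 0.30 to 0.74 for Vpreb1. The block changed no other call of a member, and the causes of these shifts were not tested. With 4 lines per genotype the smallest exact permutation p was 0.0286, and the sign-change test in 4 lines could not go below 0.125. None of the 80 alternative group levels moved by 1 SD or more.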

Other observations

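Other genes of early B cell development varied far more between libraries than the receptor genes did. While Cd79a, the member with the widest fold range, spanned 317 to 1161 CPM, Rag1 spanned 1.22 to 123 CPM and Rag2 0.140 to 44.9 CPM, the recombinase genes that rearrange the immunoglobulin loci. Dntt, the terminal transferase of pro-B cells, spanned 0.863 to 282 CPM, and Kit, a receptor of early progenitors, 0 to 132 CPM with 7 of 16 libraries at 0. In contrast, the lineage gene Pax5 spanned 785 to 1615 CPM.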
